A study of Homo sapiens with 6 samples.

Results

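The genes described here are the potassium channels KCNN3 and KCNN4 and 8 genes whose products release, pump or sense calcium. They are the inositol trisphosphate receptors ITPR1, ITPR2 and ITPR3, the endoplasmic reticulum (ER) pumps ATP2A2 and ATP2A3, the plasma membrane pumps ATP2B1 and ATP2B4, and the store sensor STIM1. Every probe set that the platform annotation pairs with 1 gene symbol, that of a listed gene, was taken, which gave 27 of the 22277 probe sets of the array for 10 genes of 11963 with such a probe set. The members were chosen by the log2 ratio of enzastaurin over untreated cells, through KCNN3 and its low ratio at 6 h and 12 h, and by their part in calcium handling. The treatment ratios of these genes are therefore given as a description, with no test. The cells were MM.1S, an established human multiple myeloma line, and enzastaurin is an inhibitor of protein kinase C beta whose dose the labels do not give. There was 1 array of enzastaurin-treated cells and 1 of untreated cells at each of 3, 6 and 12 h, 6 arrays in all. The title of the series asks about beta-catenin, ER stress and apoptosis.

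KCNN3 and KCNN4 encode calcium-activated potassium channels of small and intermediate conductance. They carry bound calmodulin and open when cytosolic calcium rises, which keeps the membrane potential negative and sustains the driving force for calcium entry in lymphoid cells. ITPR channels release calcium from the ER when inositol trisphosphate is made, ATP2A pumps (SERCA) return it to the ER, and ATP2B pumps (PMCA) expel it from the cell. STIM1 senses an emptied ER and opens ORAI channels in the plasma membrane. Plasma cells fold large amounts of secreted protein in the ER, where the chaperones need calcium.

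KCNN3 was the member with the largest differences between arrays, and the sequence before its annotated starts is shown for that reason. RefSeq (GRCh38.p14) gives 3 starts, and the 250 bases before each follow, 5′ to 3′ on the minus strand that carries the gene. Capitals mark matches to a GC box (GGGCGG) or a CCAAT box (CCAAT), searched on both strands.
KCNN3 chr1:154870282-154870531: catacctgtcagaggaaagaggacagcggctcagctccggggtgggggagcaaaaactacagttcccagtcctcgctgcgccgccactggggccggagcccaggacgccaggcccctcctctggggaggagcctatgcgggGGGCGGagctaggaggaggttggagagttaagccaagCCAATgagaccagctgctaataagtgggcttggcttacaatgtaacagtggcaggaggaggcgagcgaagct
KCNN3 chr1:154868071-154868320: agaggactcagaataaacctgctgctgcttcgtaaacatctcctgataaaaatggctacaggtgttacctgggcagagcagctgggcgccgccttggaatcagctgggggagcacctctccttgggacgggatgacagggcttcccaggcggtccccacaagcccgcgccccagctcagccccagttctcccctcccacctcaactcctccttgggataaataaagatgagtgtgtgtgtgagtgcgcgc
KCNN3 chr1:154859877-154860126: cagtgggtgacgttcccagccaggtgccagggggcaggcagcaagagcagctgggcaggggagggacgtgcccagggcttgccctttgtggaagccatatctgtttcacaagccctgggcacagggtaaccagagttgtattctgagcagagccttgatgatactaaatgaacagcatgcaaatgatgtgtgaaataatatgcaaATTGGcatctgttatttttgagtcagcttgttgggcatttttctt
The window with the highest coordinates held a GC box 109 bases and a CCAAT box 72 bases before the start. The window with the lowest coordinates held a CCAAT box on the other strand, 45 bases before its start, and the window between them held neither. A GC box was present in 42.6% and a CCAAT box in 32.01% of the 35116 windows of this length in the table. The GC content was 62.0%, 58.4% and 50.4% in the order printed, against a median of 58.0%. The arrays do not tell which start was used.

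In the same windows no KCNN3 start had a match to the core of TCF/LEF sites (CTTTGA), of NFAT sites (TGGAAA), to the ATF4 and CHOP element (TGATGNAA) or to the ER stress response element. These 4 motifs occurred in 11.2%, 18.0%, 3.14% and 0.074% of all windows. Windows were listed for 8 of the 10 genes, 15 in all, and among them ITPR1 held the TCF/LEF core. GC boxes stood before at least 1 start of ATP2A2, ATP2B1, ATP2B4, ITPR3, KCNN4 and STIM1 as well. A match describes the letters and does not show that a factor binds there.

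The KCNN3 probe set with the higher mean intensity read 152, 266 and 302 in untreated cells at 3, 6 and 12 h. With enzastaurin it read 170, 24.0 and 15.5. At 3 h the treated array was thus slightly the higher, and at 6 h and 12 h the 2 treated arrays lay below every other array. The untreated and treated groups still overlapped over all 3 times, because the 3 h reading of 170 exceeded the untreated 3 h reading. In order of level the arrays ran from untreated 12 h and 6 h, through treated and untreated 3 h, to treated 6 h and 12 h. With 1 array at each place, no spread is known for any step of this order.

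The log2 ratio of enzastaurin over untreated cells was 0.16 at 3 h, -3.47 at 6 h and -4.28 at 12 h, that is 11.05-fold and 19.4-fold lower at the later times. The mean over the 3 times was -2.53 ± 2.36 (SD, n = 3 time-matched ratios), a spread that reflects the 3 h pair. Both arms contributed, since untreated cells at 12 h were higher than at 3 h by 0.99 on the log2 scale and treated cells were at -3.45 over the same interval. Readings of 24.0 and 15.5 lie near the median of 29.9 for 23 marker genes of monocytes, T and NK cells, stroma and red cells, most of which a myeloma line should lack. The size of the late ratios is therefore not exact. Fewer cells with the transcript and less transcript per cell cannot be told apart in such bulk samples.

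The second KCNN3 probe set read 78.9, 152 and 174 without enzastaurin and 120, 69.4 and 23.5 with it. Its ratios were 0.60, -1.13 and -2.89, so the reading at 6 h was 2.19-fold lower where the first probe set gave 11.05-fold. The probe sets thus ordered the treated arrays alike and differed in size most at 6 h. Over the 6 arrays their log2 intensities had a Pearson correlation of 0.90. KCNN3 kept the sign of each of its 3 ratios on both probe sets under quantile normalization, equal array medians and added constants of 16 and 32.

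**Figure D1:**
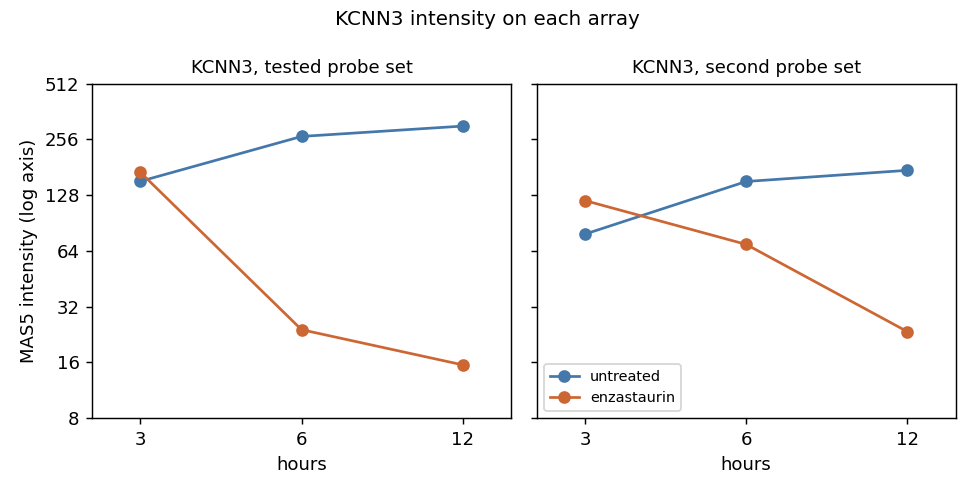
KCNN3 intensity (MAS5 units, log axis) against hours for the tested probe set (left) and the second probe set (right), 1 point per array, untreated in blue and enzastaurin in orange. The lines cross between 3 h and 6 h, and the treated readings end at 15.5 and 23.5 where the untreated ones end at 302 and 174.

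Measures of the RNA and the array moved with the treatment at the same late times. The 3 probe sets for ribosomal RNA had a mean log2 intensity of 11.98 (6 h) and 9.29 (12 h) without the drug and of 3.79 and 3.02 with it. At 3 h this mean was instead higher with enzastaurin, 3.39 untreated and 9.99 treated. The KCNN3 ratios at 3 h were above 0 as well, 0.16 on the first probe set and 0.60 on the second. The difference in ribosomal RNA thus had the sign of the KCNN3 ratio on both probe sets at each time. The 3′ over 5′ log2 ratio of the ACTB control was 1.16 (6 h) and 1.60 (12 h) without the drug and 0.57 and 0.86 with it. At 3 h the ACTB ratio was slightly higher with enzastaurin, again the sign of the KCNN3 ratios. The part of the ribosomal RNA and ACTB measures in the KCNN3 readings was not tested. Median intensities of the arrays were 62.2 to 67.6. All 8 plasma cell and myeloma markers passed the filter on low intensity, and their summed intensity was 17824 to 22731 in untreated and 16661 to 20016 in treated cells. XBP1 and JCHAIN were the brightest of them and were higher with the drug at 6 h and 12 h. XBP1 read 5604, 5010 and 5177 untreated and 5229, 6896 and 6189 treated. JCHAIN read 4467, 5178 and 3874 untreated and 3148, 6766 and 7091 treated. Other markers of this list were lower late, with KCNN3. TNFRSF17, the BCMA receptor of plasma cells, read 3003, 4308 and 4474 untreated and 2970, 2119 and 528 treated. IRF4 read 1590, 2901 and 3058 untreated and 1403, 788 and 1221 treated on its brightest probe set. The brighter SDC1 probe set, for the plasma cell marker CD138, read 2319, 2913 and 3278 untreated and 2490, 1850 and 1229 treated. The part of these differences in the KCNN3 readings was not tested. The 7 monocyte markers all lay below the filter, with sums of 107 to 162 untreated and 131 to 162 treated, and LYZ was lowest at a geometric mean of 2.04. Of the other lists, 1 of 7 T and NK cell, 3 of 6 stromal and endothelial and 1 of 3 measured red cell markers passed it. The sums of these lists overlapped between treated and untreated arrays.

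KCNN4, the intermediate-conductance channel that many lymphocytes use, read 17.1, 5.30 and 13.2 untreated and 6.92, 23.7 and 24.7 treated on its single probe set. All 6 readings lie in the range of the markers of other cell types and below the filter, which kept probe sets with a geometric mean of 63.3 or more. Its log2 ratios of -1.30, 2.16 and 0.90 therefore compare readings near background and give no size for a change.

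The inositol trisphosphate receptors, the release channels of the store, did not share a direction. ITPR2 had 4 probe sets, and the one with the highest mean read 417, 180 and 242 without enzastaurin and 210, 272 and 277 with it. The untreated array was the higher at 3 h and the treated array at 6 h and 12 h, with ratios of -0.99, 0.59 and 0.19. On all 4 ITPR2 probe sets the ratio was below 0 at 3 h and above 0 at both later times, except that the -0.03 of the third of them turned to 0.02 under quantile normalization and equal medians. The second of them gave -0.48, 0.45 and 0.74, the next -0.03, 0.36 and 0.34, and the weakest, below the filter, -0.14, 0.53 and 1.21. Probe sets of a gene share their RNA and are not replicates of the treatment.

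ITPR3 had its highest probe set at 778, 497 and 745 untreated and 861, 753 and 398 treated. The ratio was 0.15 at 3 h, 0.60 at 6 h and -0.91 at 12 h, so the treated array passed from above to below its control. A second ITPR3 probe set read 90.8, 180 and 126 untreated and 93.0, 84.1 and 89.5 with enzastaurin, with ratios of 0.04, -1.10 and -0.49. These probe sets gave opposite signs at 6 h and correlated at -0.30 over the 6 arrays, the lowest value among the 17 pairs of kept probe sets of a member. The third, below the filter at 20.1 to 53.2, had ratios of 1.41, -0.35 and 0.21. The probe sets leave the direction of ITPR3 at 6 h and 12 h unsettled, at 12 h only through the one below the filter. All 3 ITPR1 probe sets lay below the filter, at 40.6 to 52.9 for the highest, whose ratios of -0.10, 0.04 and 0.10 changed sign at the later times under quantile normalization. The weakest ITPR1 probe set, at 5.15 to 36.5, was the 1 of 27 member probe sets on which all treated arrays lay below all untreated ones, where 5.46% of all 19064 probe sets with 1 gene did so.

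ATP2A2 encodes SERCA2, the ER calcium pump found in nearly all cells. Its highest probe set read 2302, 1461 and 1651 without enzastaurin and 1706, 2780 and 1485 with it. The treated 6 h array was the highest of the 6 and the untreated 6 h array the lowest, and at 3 h and 12 h the untreated arrays were above the treated ones. The ratios were -0.43, 0.93 and -0.15, and that at 12 h turned to 0.06 under quantile normalization. A second ATP2A2 probe set gave -0.06, 1.07 and -0.56, and the weakest, at 69.3 to 112, gave -0.20, 0.06 and -0.23.

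ATP2A3 encodes SERCA3, a pump of blood and epithelial cells. Its highest probe set read 624, 982 and 674 untreated and 632, 843 and 689 treated, with ratios of 0.02, -0.22 and 0.03. All 4 ATP2A3 probe sets were highest on the untreated 6 h array. The second probe set read 403 there and 170 to 205 on the other 5 arrays, which made its 6 h ratio -1.17. Ratios at 6 h were below 0 on all 4, from -1.17 to -0.22. The untreated 6 h array also had the highest ribosomal RNA intensity of the 6, at 11.98, and its part in these readings was not tested.

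ATP2B1 encodes PMCA1, the general calcium pump of the plasma membrane. Its highest probe set read 226, 193 and 167 without enzastaurin and 242, 302 and 155 with it, with ratios of 0.10, 0.65 and -0.11. The treated 6 h array was the highest of the 6. The other ATP2B1 probe sets read 196, 54.7 and 87.0 and 110, 31.0 and 55.9 in untreated cells, so on these it was the untreated 6 h array that was lowest. Their 6 h ratios were 1.27 and 1.52. All 3 ATP2B1 probe sets and the 2 brighter ones of ATP2A2 were thus above 0 at 6 h, also under the other scalings, while the weakest of ATP2A2 turned to -0.03 and -0.04. No ratio of these 6 probe sets at 3 h or 12 h reached 2-fold.

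ATP2B4 encodes PMCA4, the second common pump of the plasma membrane. Its highest probe set read 187, 177 and 194 untreated and 122, 150 and 216 treated, with ratios of -0.62, -0.24 and 0.15. The treated 12 h array was the highest on all 3 ATP2B4 probe sets. The weakest of them read 97.3, 102 and 39.9 untreated and 24.2, 88.6 and 117 with enzastaurin, which spans ratios from -2.01 at 3 h to 1.55 at 12 h. The second gave 0.04, -0.18 and 0.51, so the wide span was not seen on the brighter probe sets.

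STIM1, the calcium sensor of the ER membrane, varied least of the tested members in its ratios apart from ATP2A3. Its single probe set read 195, 176 and 197 without enzastaurin and 219, 174 and 267 with it. The ratios were 0.17, -0.02 and 0.44, and the mean was 0.20 ± 0.23 (SD, n = 3 time-matched ratios). The treated 12 h array alone lay apart from the other 5, which read 174 to 219.

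**Figure D2:**
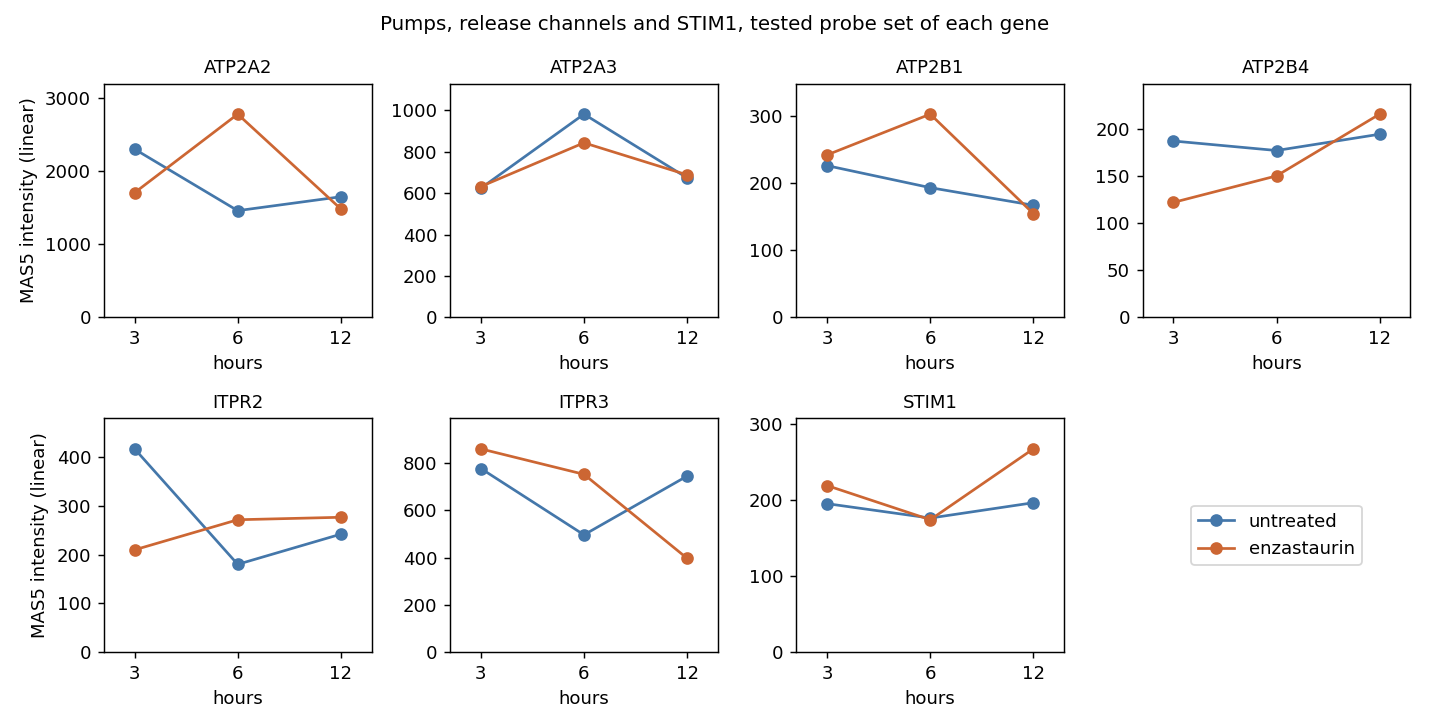
Intensity (MAS5 units, linear axes from 0, a different scale in each panel) against hours for the tested probe set of 7 genes, 1 point per array, untreated in blue and enzastaurin in orange. The lines cross at least once in every panel, and the untreated and treated ranges overlap for all 7 genes.

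The count of member probe sets past 2-fold was set against that of the whole array. At 6 h, 5 of 27 were at least 2-fold higher with enzastaurin, where 12.6% of all probe sets with 1 gene were, and 4 of 27 were at least 2-fold lower, where 7.36% were. The 5 higher ones belonged to ATP2B1 (2 probe sets), ATP2A2, ITPR1 and KCNN4, and the 4 lower ones to KCNN3 (2), ATP2A3 and ITPR3. At 12 h, 2 were at least 2-fold higher (background 9.3%), of ATP2B4 and ITPR2. At 12 h 3 were at least 2-fold lower (background 10.6%), namely both of KCNN3 and 1 of ITPR1. At 3 h the counts were 1 higher (7.16%) and 2 lower (8.17%). Since the members were chosen with these ratios known, nothing is read from the counts.

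After the filter and the choice of 1 probe set per gene, 8 of the 10 members stood among 6838 tested genes, and ITPR1 and KCNN4 did not. Their median log2 ratio was 0.06 at 3 h, 0.29 at 6 h and -0.04 at 12 h, beside -0.04, 0.06 and -0.18 for all tested genes. All 8 had ratios of both signs over the 3 times, where 23.4% of tested genes kept 1 sign, and in all 8 the treated and untreated arrays overlapped. For 3 against 3 arrays that did not overlap, the share over all tested genes was 3.47% higher and 7.18% lower. KCNN3 was the 1 of 8 that was at least 2-fold lower at both 6 h and 12 h, where 1.86% of tested genes were. That pair of ratios chose KCNN3, and nothing is read from the count.

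**Figure D3:**
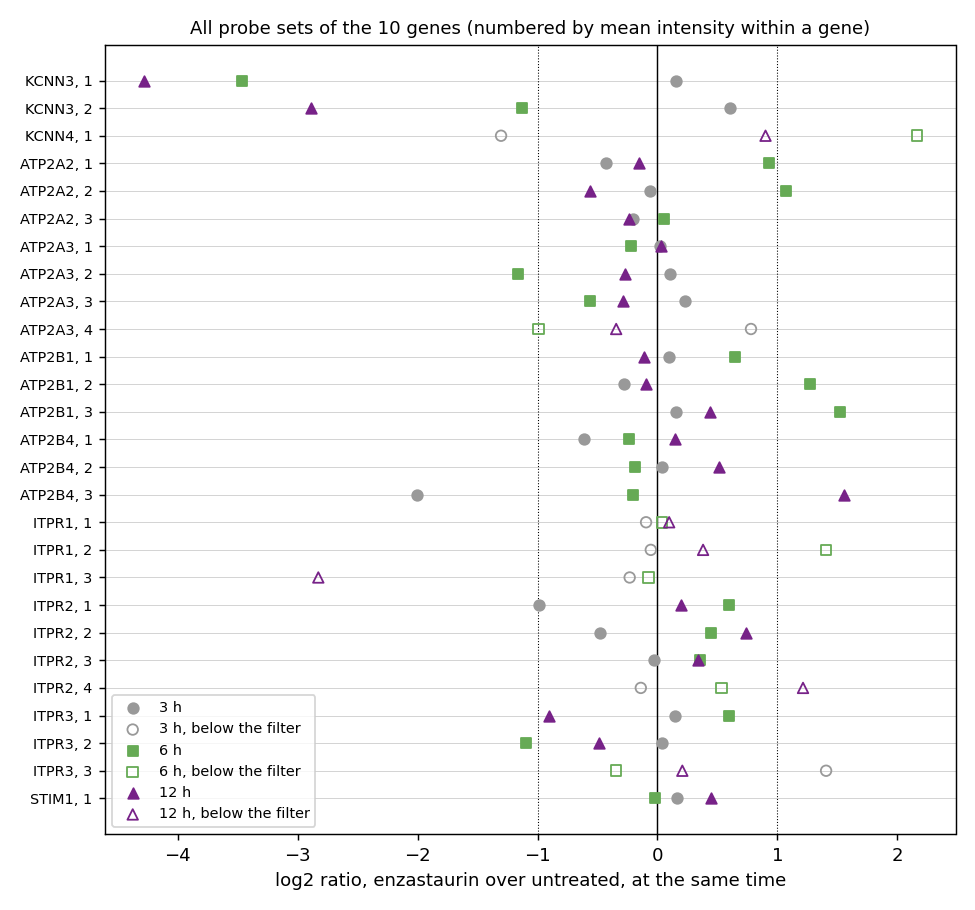
Log2 ratio of enzastaurin over untreated cells at 3 h (circles), 6 h (squares) and 12 h (triangles) for all 27 probe sets of the 10 genes, numbered by mean intensity within a gene, open where the probe set lies below the filter. Dotted lines mark 2-fold, and both KCNN3 probe sets lie beyond the lower line at 6 h and 12 h, down to -4.28.

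The other members did not follow KCNN3 across the arrays on their tested probe sets, the only ones compared here. Other probe sets of a member can differ from these, as those of ITPR3 did. Over the 6 arrays the Pearson correlation of log2 intensity between KCNN3 and the other 7 tested members ran from -0.44 for STIM1 to 0.42 for ITPR3. Among the other members the highest was 0.82 between ATP2A2 and ATP2B1, and the lowest was -0.75 between ATP2B1 and ATP2B4. These are descriptions over 6 arrays that share treatment and time.

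The 5 genes most like KCNN3, by Pearson correlation of log2 intensity over the 6 arrays among 6830 tested genes that are no members, were RGS19, CCDC85B, ITGA4, RAB36 and ARHGAP45. The correlations were 0.996, 0.995, 0.991, 0.990 and 0.989, and 334 of the 6830 genes reached 0.9, so a profile of this shape was not rare. With the second KCNN3 probe set, itself at 0.90 with the first, the same 5 genes correlated at 0.88 to 0.93. Their choice largely fixed that range. RGS19, which turns off G protein signals, read 135, 173 and 189 untreated and 160, 72.4 and 62.3 treated. CCDC85B read 107, 158 and 158 untreated and 133, 45.3 and 39.5 treated. ITGA4, the alpha 4 integrin chain by which myeloma cells adhere, read 482, 559 and 718 untreated and 441, 188 and 163 treated. RAB36, a small GTPase, had ratios of 0.21, -1.78 and -2.03, and ARHGAP45 had 0.03, -1.12 and -1.67. In each of these genes the treated 6 h and 12 h arrays were the lowest of the 6, and the late ratios were smaller in size than those of the first KCNN3 probe set. At 6 h those of RGS19, CCDC85B, ITGA4 and RAB36 were larger in size than the -1.13 of the second.

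**Figure D4:**
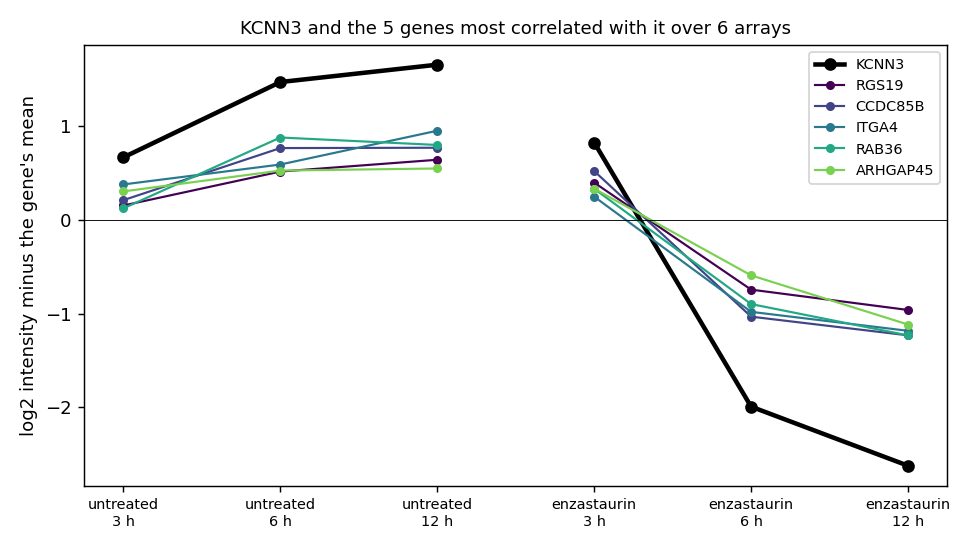
Log2 intensity minus the mean of each gene over the 6 arrays, for KCNN3 (black) and the 5 genes most correlated with it, untreated arrays at left and enzastaurin arrays at right. KCNN3 spans 4.28 log2 units, and the others, over a narrower range, are likewise lowest on the treated 6 h and 12 h arrays.

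The difference between 12 h and 3 h over both treatments, in the limma fit with treatment and time, was not itself used to choose the members. It rests on readings that also made the ratios used in the choice, so for KCNN3 it is not independent of that choice. KCNN3 had a log2 difference of -1.23 (SE 0.79, limma adjusted p = 0.999), which averages higher late readings in untreated cells with lower ones in treated cells. ITPR3 had -0.59 (SE 0.40), ATP2B1 -0.54 (SE 0.37) and ATP2B4 0.44 (SE 0.37), and the adjusted p was 0.999 for all 8 members. Of the 8, 0 passed, and 0 had an unadjusted p under 0.05. The share of all tested genes that passed was 0%, and 148 of them (2.16%) had a limma p under 0.05 before adjustment. Where the drug acted differently at each time, as the KCNN3 ratios describe, this fit takes the difference for noise, so it does not show that levels stayed the same.

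The other genes of calcium and potassium handling were taken from 7 lists of 101 genes; 77 of them could be matched to a probe set of 1 symbol, and 49 were tested. In the limma fit of all 3 times 0 of 49 passed an adjusted p of 0.05, beside 0.0585% of all tested genes, and 0 had an unadjusted p under 0.05, beside 5.41%. In the fit of the later 4 arrays 1 of 49 passed, beside 3.61% of all tested genes. There 8 of 49 had an unadjusted p under 0.05, a share near the 15.9% of all tested genes. The gene that passed was CAMKK2, a kinase activated by calcium and calmodulin that acts on CAMK1, CAMK4 and AMPK. CAMKK2 read 258, 498 and 526 without enzastaurin and 517, 203 and 237 with it. It was thus higher with the drug at 3 h, by a log2 ratio of 1.005, and lower at 6 h and 12 h, at -1.29 and -1.15. Its mean log2 ratio at the late times was -1.22 (SE 0.33, limma adjusted p = 0.0437). The adjusted p was 0.0548 with every kept probe set tested, 0.0759 without the intensity trend and 0.0532 without the time point in the fit, the others of 10 alternatives giving 0.0122 to 0.0493. A second kept CAMKK2 probe set had 0.57, -1.16 and -0.59. The ribosomal RNA and ACTB measures given for KCNN3 also parted these 4 arrays by treatment. Both measures were higher with enzastaurin at 3 h, ACTB only slightly, and lower at 6 h and 12 h. These are the signs of the ratios of both kept CAMKK2 probe sets. The part of these measures in the CAMKK2 readings, at 3 h as at the late times, was not tested.

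By list, the remaining calcium pumps and exchangers had medians of -0.14, 0.49 and 0.29 at 3, 6 and 12 h over 5 tested genes, with 4 of 5 mean ratios above 0 and none called. ATP2C1, the calcium and manganese pump of the Golgi, read 462, 216 and 495 untreated and 500, 404 and 805 treated. The treated array was the higher at each time, with a mean log2 ratio of 0.57 that did not pass (limma adjusted p = 0.972). Its other kept probe sets had lower ratios at 6 h, of 0.36, 0.13 and -0.07, and one of them was below 0 at 3 h (-0.09) and 12 h (-0.14). TMCO1, a channel that leaks calcium from an overfilled ER, had a ratio of -1.08 at 12 h after -0.14 and 0.37. SLC8B1, the mitochondrial sodium and calcium exchanger, had 0.59, -0.37 and 0.68.

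Store-operated entry genes had medians of 0.19, 0.26 and 0.13 over 4 tested genes, 2 of them with a mean above 0 and none called. ORAI2, a pore subunit opened by STIM1, had ratios of 0.38, 0.67 and 0.37, but its other kept probe sets had -0.53 and -0.36 at 6 h. ORAI3 had 0.44, -0.24 and 0.60, and SARAF, which limits this entry, stayed between -0.16 and -0.11. Other release channels and their partners had medians of 0.07, -0.10 and 0.45 over 5 genes, with none called. There the largest mean ratios in size were those of TRPM2 (0.22), TMBIM6, a leak channel that protects from ER stress (0.18), and ERP44, which binds ITPR1 in the ER lumen (-0.11). The other kept TMBIM6 probe set had 0.13, -0.11 and -0.18, where the tested one had 0.04, 0.49 and -0.007, so the sign differed at 6 h.

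Calmodulin, calcineurin and NFAT genes had medians of -0.22, -0.36 and -0.14 over 9 tested genes, and 8 of 9 mean ratios were below 0. Beside CAMKK2 these included the calcineurin catalytic subunits PPP3CC, with -0.22, -0.39 and -0.91, and PPP3CA, with -0.38, -0.29 and -0.14. Neither passed in either fit, and of the 3 other kept PPP3CC probe sets those at 0.29 and 1.06 at 12 h went the other way. Mitochondrial uptake genes had medians of -0.16, 0.03 and -0.42 over 8 genes, 6 of them with a mean below 0 and none called. SLC25A24, a calcium-sensitive carrier of ATP and magnesium, had untreated readings of 446, 276 and 256.5 and treated readings of 246, 401 and 522. Its ratio thus changed sign, from -0.86 at 3 h to 0.54 and 1.02. The porin VDAC3 had -0.26, 0.12 and -0.71, and MICU2, a gatekeeper of the uniporter, had -0.16, -0.04 and -0.58.

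ER calcium-binding proteins had medians of 0.24, -0.04 and -0.40 over 11 tested genes, with 5 mean ratios above 0, 6 below and none called. CALU, a calcium-binding protein of the secretory pathway, read 980, 730 and 852 without enzastaurin and 1030, 1576 and 932 with it. Its 6 h ratio was 1.11, and its 3 other probe sets had 0.86, 0.98 and 1.65 at that time. NUCB2 had 0.28, -0.39 and -1.17, and the disulfide isomerase PDIA4 had 0.30, -0.50 and -0.69. The other kept PDIA4 probe set had 0.02, 0.24 and -0.60, so the sign differed at 6 h. Other potassium channels had medians of 0.53, -0.34 and -0.43 over 7 tested genes, with 5 of 7 mean ratios below 0 and none called. KCNH2, the hERG channel, read 198, 171 and 269 untreated and 231, 133 and 113 treated, so that its ratio went from 0.23 to -0.36 and -1.25. A weaker KCNH2 probe set, below the filter, had 0.18, 1.45 and -0.68. KCNA3, the voltage-gated channel of lymphocytes, had -0.52, -0.65 and -0.14, and KCNK5 had 0.72, 0.44 and -0.39, both at a mean intensity near the filter. For comparison the medians of all tested genes were -0.04, 0.06 and -0.18.

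**Figure D5:**
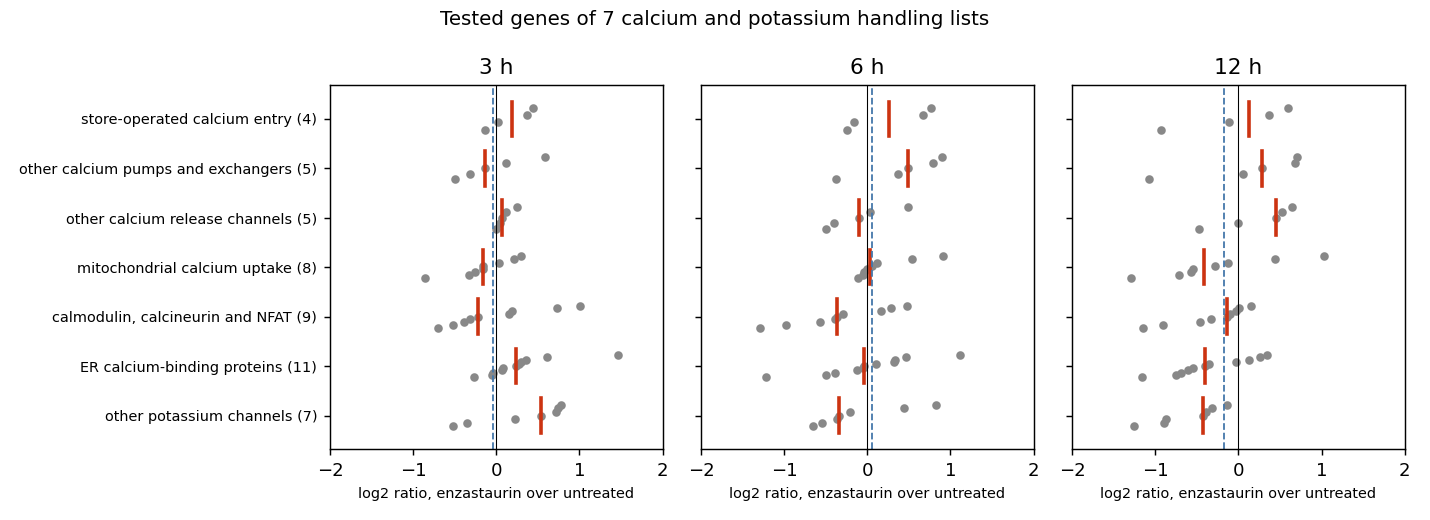
Log2 ratio of enzastaurin over untreated cells at 3, 6 and 12 h for the 49 tested genes of 7 lists (points), with the median of each list in red, the median of all tested genes as a dashed blue line and the number of tested genes in brackets. The potassium channel list has its median at 0.53 at 3 h and at -0.43 at 12 h, and its genes overlap those of the other lists at each time.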

How the data were processed

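Each sample was 1 array of biotin-labelled cRNA. The authors deposited intensity values on a linear scale, and the submitters' processing notes name MAS5 as the tool. Its version, scaling target and detection calls were not given in the sources used. The authors' scaling was kept. Intensities were floored at 1 and log2 transformed, and the filter kept the upper 50 percent of probe sets by mean log2 intensity, then the brightest probe set per gene. Symbols came from the platform annotation, updated through Entrez identifiers for 19052 of 19064 probe sets with the RefSeq table, used for names. Of the rest, 1043 probe sets had several genes, 2108 were not listed and 62 were controls.

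Fits used limma 3.58.1 in R 4.3.3 (lmFit, eBayes with an intensity trend) on 6838 genes, with time as a block and Benjamini-Hochberg adjustment over all genes. Enzastaurin and untreated arrays were paired by time point, as the labels give it. Residual degrees of freedom were 2, and 1 for the 6 h and 12 h pairs, with a prior of 9.26 and 16.9. Nothing says that arrays came from separate cultures, so p-values reflect only how these arrays vary, which may be technical. Tested on simulated data for these genes, the fit of 3 times recovered 95 percent of changes of 2 log2 units, the fit of 2 pairs 92 and that of 12 h against 3 h 55. For changes of 1 unit it was 21, 23 and 8 percent. Of the calls on the simulated data, 3.33, 7.26 and 1.56 percent were false in these fits, in the same order.

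The members, lists, fits and alternatives were chosen with earlier results of these data known. Named were all members, list genes called in either treatment fit, the 3 largest mean ratios of each list and the 5 genes most correlated with KCNN3. The number of arrays limits the precision. Alternatives covered normalization, filter, added constants, probe set choice, the variance trend, the time block and each pair left out.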

Additional observations from a re-analysis of the deposited data

How the results depend on the processing

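KCNN3 kept a negative mean log2 ratio under all 13 alternatives of the fit of 3 times (-3.87 to -1.65) and all 10 of the late pairs (-3.94 to -2.61). These ratios chose KCNN3, so the sign is a description. The settings of the filter, of testing every kept probe set, of the variance trend and of the time block leave this mean as it is. Agreement in those settings was therefore fixed in advance. The late mean of KCNN3 was -3.87 as reported, -3.07 and -2.61 with constants of 16 and 32 added and -2.94 with the median over probe sets. STIM1 kept its sign in all 23. On its single probe set only the scalings, the added constants and the left-out pairs could change the ratio. ATP2A2, ATP2A3, ATP2B1, ATP2B4, ITPR2 and ITPR3 changed sign in 1 or 2 of the 13. Among these were settings that left out a pair or combined the probe sets. For the late pairs ATP2B4, at -0.04 as reported, kept its sign in 8 of the 10 and reached 0.16.

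Genes called over 3 times numbered 4. They were 1 with equal medians, with no filter and with the upper 75 percent kept, 0 without the intensity trend, 2 without the time point (no replicate block), and 0 to 247 with a pair left out, 247 being without the 3 h pair. Calls of the late pairs, 247 as reported, were 564 with no filter, 515 with the upper 75 percent, 433 with 32 added, 372 with the median over probe sets, 133 without the trend and 135 without the time point (no replicate block). For 12 h against 3 h limma called 0 in every setting run, and 96 to 308 genes had an unadjusted p under 0.05. Leaving out a pair of the late fit leaves no residual degree of freedom, so it was not run.

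Genes at least 2-fold higher and lower at 3 h (129 and 181) were 740 and 838 with no filter, 292 and 361 with the upper 75 percent, 213 and 285 with every probe set, and 64 and 90 with 32 added. With 16 added 78 were higher at 3 h. At 6 h (383 and 220) they were 1302 and 759, 723 and 342, and 588 and 348 in the first 3 of these settings, and 238 were higher with 32 added. At 12 h (265 and 712) they were 971 and 1253 with no filter, and the higher ones were 516 with the upper 75 percent, 426 with every probe set and 172 with 32 added. The share of lower genes among them went from 58.4 to 47.3 percent at 3 h, 36.5 to 46.9 at 6 h and 72.9 to 58.9 at 12 h with quantile normalization, and to 48.0, 50.5 and 76.4 with equal medians. Quantile normalization moved the median ratio of all tested genes at 12 h from -0.18 to -0.033.

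The log2 ratio of ORAI2 reversed with the median over probe sets (-0.29 over 3 times, -0.73 late). Late, KCNK5 was at -0.030 with quantile normalization and -0.043 with equal medians. With a pair left out, TMCO1 ran from -0.61 to 0.12, ERP44 from -0.28 to 0.074 and SLC25A24 from -0.16 to 0.78, with the reversed sign without the 12 h pair. For 12 h against 3 h ATP2A3 was at -0.047 and ITPR2 at 0.37 with the median over probe sets. Leaving out the 3 h pair turns the fit of 3 times into the fit of the late pairs, so its CAMKK2 call is the one already given. The cause of the reversals was not tested.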
